A study of Mus musculus with 4 samples.

Results

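Messenger RNA of skeletal muscle that lacks Txnip was compared with wild-type muscle in lean mice, with 1 array on each side. Txnip encodes thioredoxin-interacting protein, named TBP-2 in the labels. The genes compared were those well above background on both arrays, as the scanner software calls it, which left 15220 of 27591 genes or named transcripts. The series holds 4 arrays of muscle from mice aged 10 weeks and fed freely: WT, TBP-2-/- (Txnip-null here), ob/ob, and ob/ob TBP-2-/- (ob/ob Txnip-null here). The ob/ob mice carry a defective leptin gene and grow obese. The arrays of the ob/ob pair enter here to show which lean differences recur on another background and which rest on the WT array alone. Not stated are the strain, the sex, the muscle used, the deleted stretch of Txnip, and whether single mice or pools gave the RNA. In the ob/ob sample the genotype field is spelled differently from the title, and the title was followed.

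Txnip binds and inhibits thioredoxin, and it also belongs to the alpha-arrestins, adaptor proteins that bring membrane proteins such as glucose transporters into the cell. Its own transcription rises with glucose through the factors MondoA and ChREBP. In muscle it is known as a brake on glucose uptake. Muscle is also a main site where branched-chain amino acids (leucine, isoleucine and valine) lose their amino group and are oxidised, and where ketone bodies and fatty acids are burned.

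Each value below is a processed signal, that is, a spot's brightness after background subtraction, and 4 signals in a row follow the order WT, then Txnip-null, then ob/ob, then ob/ob Txnip-null. Differences are log2 of the signal minus each array's 75th percentile, and the error beside them is a standard error (SE) from the scanner software's error model, which covers technical error only. A single array per genotype gives no replicate check, so a difference carries no p-value, and "higher" and "lower" describe these arrays. Between 22678 and 24223 of 41174 probes per array were well above background, the 75th percentiles ranged from 273 to 320.7, and probes printed several times varied by a median SD of 0.0590 to 0.0673 (log2). All 15 muscle fibre markers were measured, with Ckm, muscle creatine kinase, at 290343 (WT) and 260429.6 (Txnip-null), and none of the 15 was 2-fold apart. The Y-linked genes Ddx3y and Eif2s3y were bright on all 4 arrays, at 928 or more. Muscle RNA is a bulk sample, so fewer cells of a type and less RNA per cell cannot be told apart. Scaling on the spike-in RNA instead would add 0.24 to every log2 difference of the lean pair and take 0.55 from every difference of the ob/ob pair. A lean median below 0 by less than 0.24, or a median of the ob/ob pair above 0 by less than 0.55, would thus change sign. Differences are therefore read against the median over all genes, which was -0.07 for the lean pair and 0.03 for the ob/ob pair.

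The brighter Txnip probe (chromosome 3, 96646629 to 96646688, mm8) gave 13209, 868, 13142 and 166. Both null arrays were low and both others high, in accord with the labels, and the lean difference was 16.7-fold (-4.06 ± 0.20). The other probe, at 96644567 to 96644741, gave 427 in WT muscle and was not well above background on either null array. Some signal was left on the brighter probe of the lean null array. It cannot be assigned to intact transcript, since the deleted part is not known here.

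Past a 2-fold threshold, 264 of the 15220 genes (1.73%) were higher and 134 (0.88%) lower without Txnip. Under spike-in scaling these counts were 500 and 85. The list thins quickly: 4-fold was passed by 33 higher and 23 lower genes, and 8-fold by 12 and 6. The 2-fold threshold cuts through a continuum, with Efnb3 (1.0004) and Pamr1 (1.0027) just inside and S100b (0.999) and Rrm2 (0.994) just outside on the higher side. On the lower side Nr5a1 (-1.0001) and Rpp40 (-1.03) were inside, and Slc43a1 (-0.994) and Mxd1 (-0.994) outside.

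Of these, 253 higher and 112 lower genes could be read on all 4 arrays (14907 genes in total could), and they fell into classes. In 98 higher (0.657%) and 30 lower genes (0.201%) the WT array stood apart by 2-fold or more from each of the other 3 arrays. Of these, 10 higher and 2 lower genes, Nmrk2, Fos and Kera among them, also differed 2-fold the same way in the ob/ob pair, and the lean difference of the others was seen against WT alone. In 31 higher (0.208%) and 15 lower genes (0.101%) the Txnip-null array stood apart from each of the others. In 55 higher (0.369%) and 31 lower genes (0.208%) the ob/ob pair, which shares no array with the lean pair, differed 2-fold or more the same way. That is 21.7% of the lean pair's higher genes and 22.7% of the 242 of the ob/ob pair, and 27.7% and 25.6% (of 121) for the lower genes. Opposite 2-fold differences were found for 2 genes higher and 4 lower in the lean pair. The classes of single arrays overlap with the class of both backgrounds in 16 higher and 5 lower genes, and 85 higher and 41 lower genes belonged to no class. With spike-in scaling the WT class held 252 higher and 14 lower genes and the class of both backgrounds 28 and 38, so the split of higher against lower genes depends on the scaling.

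**Figure D1:**
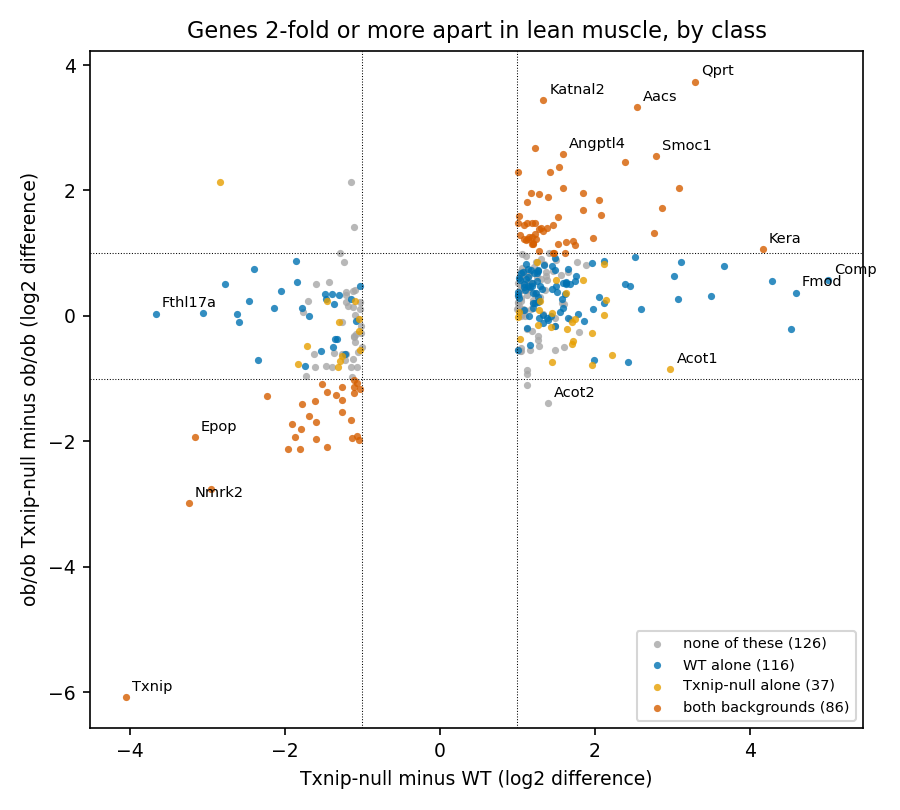
Log2 difference of each gene that was 2-fold or more apart in lean muscle and well above background on all 4 arrays: Txnip-null minus WT on the horizontal axis, ob/ob Txnip-null minus ob/ob on the vertical axis, 1 point per gene. Dotted lines mark 2-fold, and genes in both backgrounds and a single-array class are coloured as both backgrounds; the WT-alone genes Comp and Fmod lie far right near 0 on the vertical axis, while Qprt, Aacs and Txnip lie far from 0 on both axes.

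Txnip, Nmrk2, Epop and Cth had the largest lean differences among the genes lower on both backgrounds. Nmrk2, the muscle nicotinamide riboside kinase that makes an NAD precursor (chromosome 10, 80602417 to 80602476, mm8), gave 36969.6, 4279, 8472 and 910.1. It was 9.46-fold lower in the lean pair (-3.24 ± 0.20) and 7.92-fold lower in the ob/ob pair (-2.98 ± 0.20), and WT was the brightest array by a wide margin. Cth, cystathionine gamma-lyase of the pathway from methionine to cysteine (chromosome 3, 157829996 to 157830055, mm8), gave 153, 21.5, 193 and 24.2. The arrays with and without Txnip did not overlap, and the lean difference was 7.78-fold (-2.96 ± 0.27). Kyat3, a kynurenine aminotransferase, gave 703, 197, 877 and 171, and Gcat, which breaks down threonine to glycine, gave 1232, 357, 1303 and 337. Both separated by Txnip genotype in the same manner, at -1.96 ± 0.20 and -1.92 ± 0.20 in the lean pair. Epop, a partner of Polycomb complexes, was lower in both pairs (-3.16 ± 0.26 and -1.93 ± 0.22) and lowest in the lean Txnip-null muscle, at 19.4.

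In branched-chain amino acid breakdown, all 23 genes of the list were measured and all 23 lay below 0 in the lean pair (21 of 23 under spike-in scaling), where 39.6% of all genes lay above 0. Of the 23, 7 were 2-fold or more lower and 14 were 1.5-fold or more lower, against 0.88% and 3.29% of all genes, and the list's median was -0.75. In the ob/ob pair 22 of the 23 lay below 0, where 53.9% of all genes lay above 0. There 8 were 2-fold lower, against 121 of all 14907 genes, and the median was again -0.75. The match of the medians holds for the scaling used here. Under spike-in scaling the lean median was -0.51, while 0.55 is taken from that of the ob/ob pair. For 17 of the 23 genes the differences of both pairs lay within 0.25 of each other at the scaling used here. The share of all genes this close was not counted, so the 17 are not read as a trait of this list. Such genes numbered 18 of 25 for pyruvate dehydrogenase and the tricarboxylic acid cycle, and 3 of 30 for fatty acid uptake and oxidation.

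Bcat2, the mitochondrial aminotransferase of the first step (chromosome 7, 45457440 to 45457499, mm8), gave 465, 139.6, 516 and 115. Its lean difference was -1.87 ± 0.21, and its 3 probes ranged from -1.96 to -0.49. The next step is the branched-chain keto acid dehydrogenase complex, and its subunits were unequal: Bckdhb was at -1.79 ± 0.20 and Dbt at -1.69 ± 0.21, while Bckdha was at -0.62 ± 0.20 and Dld, a subunit shared with pyruvate dehydrogenase, at -0.34 ± 0.20. Bckdhb went from 1808 to 573 in lean and from 2029 to 496 in ob/ob muscle. Of the regulators of the complex, the activating phosphatase Ppm1k was at -1.45 ± 0.21 and the inhibiting kinase Bckdk at -0.29 ± 0.20.

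Further down the pathway, Ivd, isovaleryl-CoA dehydrogenase of leucine breakdown, went from 9230.4 to 3346 (-1.59 ± 0.20) in the lean pair and from 8647 to 2274 in the ob/ob pair. Acadsb, its counterpart for isoleucine, was at -1.45 ± 0.20 and Aldh6a1, of the valine branch, at -1.08 ± 0.20. The later propionate enzymes Mmut (-0.91), Pcca (-0.80) and Pccb (-0.68) were lower by less than 2-fold. The members nearest to 0 were Auh (-0.19) and Hibch (-0.20), whose distance from 0 was within their SE of 0.20 and which turned positive under spike-in scaling. Members beyond the 4 with the largest differences were chosen for mention after their values were seen, here and in the lists below.

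**Figure D2:**
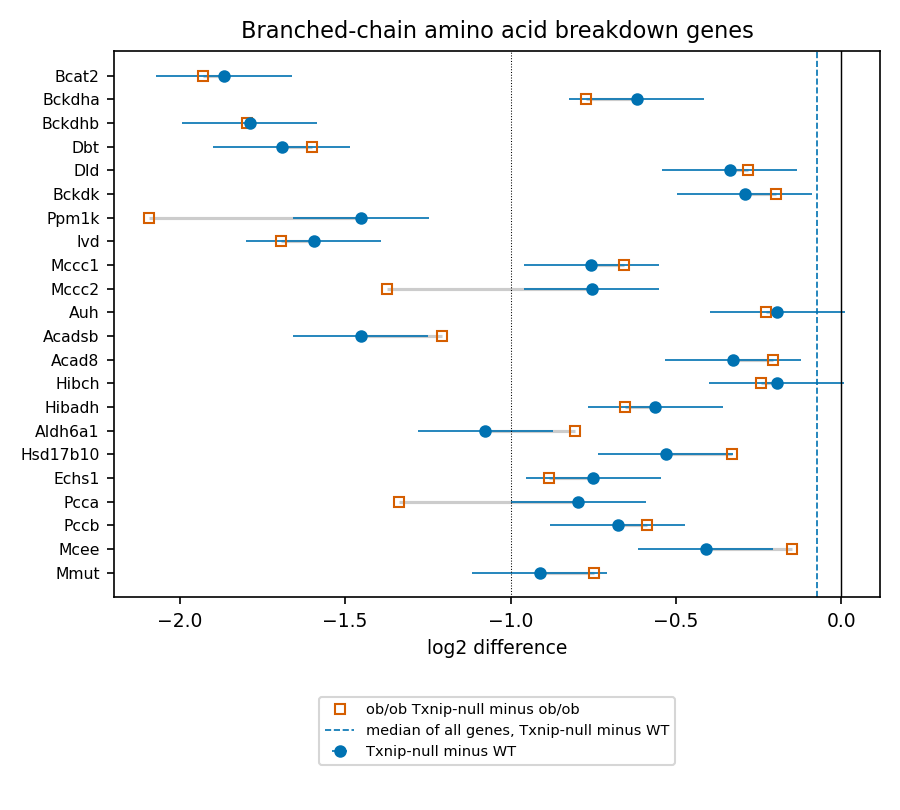
Log2 difference of 22 of the 23 genes of branched-chain amino acid breakdown, in the order of the pathway: filled circles show Txnip-null minus WT with the SE of the error model, open squares the ob/ob pair. The solid line marks 0, the dotted line 2-fold lower and the dashed line the median of all genes in the lean pair (-0.07); all 22 circles lie left of 0, from -1.87 for Bcat2 to -0.19 for Auh.

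Other enzymes of amino acid use were in the same class, though these were picked out after their values were seen. They include Aldh4a1 (-1.26 and -1.14 in the lean and ob/ob pairs) and Prodh (-1.05 and -1.97) of proline breakdown, Gnmt, glycine N-methyltransferase (-1.52 and -1.08), the urea cycle enzyme Asl (-1.10 and -1.02) and the basic amino acid carrier Slc25a29 (-1.60 and -1.97). Of the 11 transaminases measured, 3 were 2-fold lower and 1 lay above 0, against 0.88% and 39.6% of all genes, with a median of -0.36. Abat, which degrades GABA, was the third beside Bcat2 and Kyat3, at -1.03 ± 0.21, while its other probe above background gave -0.09.

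Ketone body genes went opposite ways within the list of 7, of which 1 was 2-fold higher and 1 lower. Their median, -0.27, lay farther below 0 than the 0.24 that spike-in scaling adds. Over the 6 measured on all 4 arrays the median was -0.22, and 0.02 under spike-in scaling. Oxct1, the mitochondrial transferase that commits ketone bodies to oxidation, gave 50872, 15867, 39611 and 7735, a lean difference of -1.81 ± 0.20. Aacs, the cytosolic synthetase that routes acetoacetate to lipid synthesis (chromosome 5, 125806615 to 125806674, mm8), gave 579, 3684, 577 and 4921. The arrays with Txnip matched closely for Aacs, and the lean difference was 5.81-fold (2.54 ± 0.20). Bdh1, the mitochondrial ketone body dehydrogenase, was at -0.69 ± 0.20. Its spot on the ob/ob array was marked as an outlier and left out.

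NAD synthesis was divided as well. Qprt, which makes nicotinic acid mononucleotide from quinolinate, the end product of tryptophan breakdown (chromosome 7, 126899109 to 126899168, mm8), gave 53.1, 570.3, 62.9 and 714. It was 9.80-fold higher in the lean pair (3.29 ± 0.21) and 13.3-fold higher in the ob/ob pair, with no overlap between genotypes. The median of the 12 genes of NAD synthesis was -0.08, close to that of all genes, so Qprt and Nmrk2 stood apart from their list in opposite directions. Nmnat3 (-0.45 ± 0.20) and Nadk2 (-0.43 ± 0.20) came next.

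Among the other genes higher on both backgrounds, Smoc1, a secreted calcium-binding matrix protein, gave 72.4, 547, 118 and 588. Gys2, the liver form of glycogen synthase, gave 13.0, 74.3, 20.9 and 97.9, which is dim on the WT array but well above background there. Tmem40 (2.86 ± 0.31) and Vat1l (2.77 ± 0.24) were higher in both pairs, and WT was also 2-fold below the ob/ob array for each. Angptl4, a secreted inhibitor of lipoprotein lipase, was higher in both pairs (1.59 ± 0.20 and 2.58 ± 0.20). Pdk4, the kinase that shuts pyruvate dehydrogenase, went from 27914 to 74243 in lean and from 8756 to 19557 in ob/ob muscle. Katnal2, a katanin-like protein, differed more in the ob/ob pair (42.0 against 387) than in the lean pair (358 against 986). The cell division genes Mki67 (1.53 ± 0.27), Birc5 (1.18 ± 0.24) and Cenpe (1.75 ± 0.35), named after their values were seen, were also in this class at signals below 75.

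Arrestin-domain relatives of Txnip were among the 8 measured genes of the arrestin and glucose-sensing list, with 1 higher and 1 lower (Txnip itself) by 2-fold. Arrdc4, the closest relative in glucose response, gave 159.9, 383, 258 and 513 (1.13 ± 0.21), and its probes ranged from 1.09 to 1.13. It was short of 2-fold with normexp background correction. Arrdc3 was at 0.69 ± 0.20 and Mlxip, which encodes MondoA, at 0.53 ± 0.20. MondoA and ChREBP bind pairs of E-boxes, so the E-box letters CACGTG were searched on both strands in RefSeq promoters (GRCm38.p6, 250 bases before to 50 after the start). Promoters were found for 36 of the 55 higher and 22 of the 31 lower genes of both backgrounds. The letters occurred in 4 of the 36 (11.1%) and 2 of the 22 (9.09%), against 11.6% of 10311 genes measured on all 4 arrays and 8.09% of 27025 genes in all. The share in both sets was thus near the background. The amino acid response letters TGATGNAA, read by the stress factor ATF4, occurred in 1 of the 36 (Chac1), against 2.78% of the genes measured. A pair of AGGTCA half-sites separated by 1 base, the element of PPAR receptors, occurred in 0 of the 36 and 0 of the 22, and in 0.0291% of the genes measured. The stretches for Arrdc4 and Chac1 are shown because these genes represent the glucose and amino acid stress responses in this class, and that for Ddt as a lower gene with the same letters. Capitals mark the letters, which for Chac1 lie on the strand opposite to the gene. A match describes the letters only.
Arrdc4, chr7:68749396-68749461, minus strand: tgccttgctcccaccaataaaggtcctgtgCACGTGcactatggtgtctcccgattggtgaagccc
Chac1, chr2:119351019-119351086, plus strand: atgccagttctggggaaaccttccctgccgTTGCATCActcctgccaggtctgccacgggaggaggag
Ddt, chr10:75773508-75773573, minus strand: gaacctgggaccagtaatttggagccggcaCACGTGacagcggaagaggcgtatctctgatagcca

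Chac1 degrades glutathione and is a target of ATF4. It gave 7975, 19381, 3271 and 6669.8 (1.15 ± 0.20 in the lean pair), so both null arrays lay above their own controls while the ob/ob null array lay below WT. In the lean pair the rest of the ATF4 and endoplasmic reticulum stress list did not share this: of 20 genes measured 1, Chac1 itself, was 2-fold higher, 0 were lower, and the median was -0.01. In the ob/ob pair 3 of the 20 were 2-fold higher and 0 lower, where 242 of all 14907 genes were higher. There 12 of the 20 lay above 0, against 53.9% of all genes, and the median was 0.17, negative under spike-in scaling. Phgdh, of serine synthesis, was at 0.90 ± 0.20 and Ddit4, an inhibitor of mTOR signalling, at 0.57 ± 0.20 in the lean and 2.05 ± 0.20 in the ob/ob pair. The thioredoxin and antioxidant list had a median of -0.04 over 23 genes, with Mt2, a metallothionein, alone past 2-fold at 1.22 ± 0.20.

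Among genes well above background on both arrays, the largest differences of the lean pair were those of Comp, Fmod and Angptl7, and for these tendon genes WT alone departed. Comp, a matrix protein of tendon and cartilage (chromosome 8, 73310782 to 73310915, mm8), gave 39.0, 1373, 1828 and 2304. The WT array was low and the other 3 high, so the 32.1-fold lean difference (5.01 ± 0.22) stood beside a difference of 0.57 ± 0.20 in the ob/ob pair. Fmod, fibromodulin, gave 147, 3877, 4879 and 5374, and Angptl7 gave 18.7, 475, 1018 and 746. Of the 12 tendon markers measured on both arrays, 9 were 2-fold higher, all 9 of them with WT alone apart, against 0.657% of all genes. The list's median was 3.59, and ob/ob muscle stood above WT by a median of 3.82, with 10 of the 12 genes 2-fold higher. In the ob/ob pair the median was 0.37. The summed signal of the 12 was 9747 (WT) and between 26312 and 41439 on the other arrays.

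The tendon markers did not move evenly. The structural genes Tnmd, tenomodulin, Kera and Chad were 12.7-fold, 18.0-fold and 11.3-fold higher, and Thbs4 and Thbs2, thrombospondins that tendon shares with other connective tissue, 2.30-fold and 2.83-fold. Kera was also 2-fold higher in the ob/ob pair (1.07 ± 0.20), the only tendon marker of the 12 to be so. Scx, the transcription factor of tendon progenitors, was at 0.51 ± 0.20, Fibin at 0.38 ± 0.20 and Cilp at -0.12 ± 0.20. Mkx and Tnc were not well above background on the WT array and were so on the other 3. Fibroblast and matrix genes leaned the same way with smaller values: 20 of 20 lay above 0, 3 were 2-fold higher, and the median was 0.48 in both pairs, that of the ob/ob pair turning negative under spike-in scaling. Col1a1, type I collagen, gave 6921, 20975, 17392 and 29615. Of 5 cartilage and bone markers measured, 1 was 2-fold higher (Col9a1, 1.34 ± 0.29), and 9 of the 14 listed were not measured on both arrays. The labels do not name the muscle or the part of it that was taken, and the part of the tendon content in these values was not tested.

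**Figure D3:**
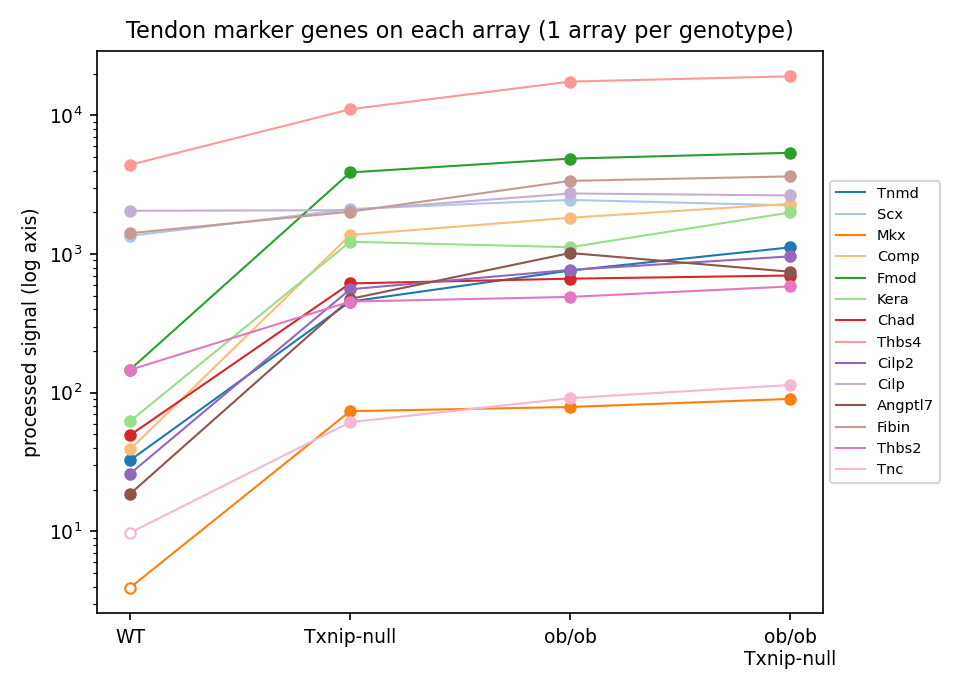
Processed signal of the 14 listed tendon markers on each array (vertical log axis, 1 line per gene, 1 array per genotype). Open circles are probes not well above background; most lines are low on the WT array and nearly level across the other 3 arrays, as for Fmod at 147 against 3877, 4879 and 5374.

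Other genes for which WT alone was low include Ankrd1, a stretch-responsive sarcomere protein, with 163, 1442, 871 and 1153 (3.02 ± 0.21 in the lean pair). Named after their values were seen, Ccn2, a matrix growth factor of the same stretch response, gave 1569, 7151, 11044 and 11594, and Mss51, a muscle regulator of mitochondrial respiration, gave 180.3, 1081, 14211 and 16791. For Mss51 the Txnip-null array also stood far below both ob/ob arrays. The developmental sarcomere list had 1 of 12 genes 2-fold higher and a median of -0.01, with Myh3, embryonic myosin, at 0.97 ± 0.20 and Myl4 at 0.92 ± 0.20.

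The 30 lower genes with WT alone apart behaved differently on the slide itself. Fthl17a, a ferritin-like gene, gave 149.5 in WT and 12.9, 14.5 and 12.7 on the other arrays, and Ccdc146 gave 184 against 24.2, 26.2 and 23.1. Fgr, a Src-family kinase, Raph1 and Gfra1 showed the same shape, at 145, 123 and 109 in WT and at or below 24.9 elsewhere. Over the 30 probes, 24.2% of the 8 spots around each also stood 2-fold above the other 3 arrays on the WT array, against 1.42% of all spots. In 12 of the 30 genes 3 or more neighbours did so, and in 9 none did. Among the named genes Raph1 had 4 such neighbours, Fgr and Gfra1 had 3, Fthl17a had 2, Ccdc146 had 1 and Nmrk2 had 0. Leaving out genes with 2 or more such neighbours left 12 of the 30. The 98 higher genes did not have this: 1.91% of their neighbours stood apart, against 1.18% of all spots, and 83 of the 98 had none, Comp and Fmod among them. The part of the position on the slide in these lower values was not tested further.

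**Figure D4:**
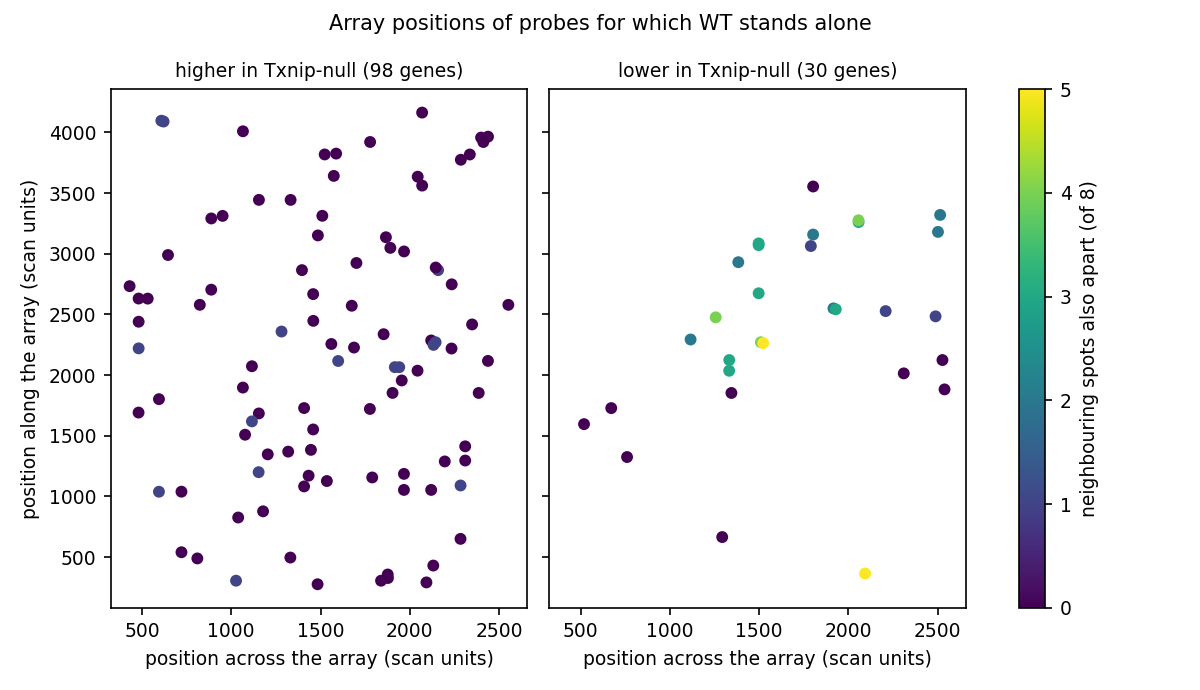
Position on the array of the probes of genes for which WT alone stood apart, in the scan's own units, for the 98 genes higher and the 30 lower in Txnip-null muscle. Colour gives how many of the 8 surrounding spots also stood apart the same way on the WT array; it reaches 5 among the lower genes and 1 among the higher.

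Genes for which the Txnip-null array alone departed were few. Acot1, a cytosolic thioesterase that frees fatty acids from coenzyme A (chromosome 12, 84907250 to 84907309, mm8), gave 127, 1094, 229 and 108. The lean difference was 7.86-fold (2.97 ± 0.21), and in the ob/ob pair the null array was the lower (-0.85 ± 0.21). Socs1, which damps cytokine signalling, gave 122, 433, 153 and 122, and Myl10, a myosin light chain, 101, 301, 148 and 75.2. Nnat, an imprinted gene, was higher in both pairs (2.08 ± 0.21 and 1.60 ± 0.32) and brightest in lean Txnip-null muscle, at 267. Samd4b (2.11 ± 0.24) had 4 of its 8 neighbouring spots apart on the Txnip-null array. Over the 31 higher genes of this class 13.3% of neighbours were apart, against 1.37% of all spots, and 21 of the 31 had fewer than 2.

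On the lower side Cdh4, a cadherin, gave 801, 318, 949 and 949 (-1.46 ± 0.20), although its probes ranged from -1.46 to -0.78. Aldh1l1, of folate metabolism, was at -1.31 ± 0.21, the lymphoid chemokine Ccl21c at -1.29 ± 0.20 and the X-linked Xlr4b at -1.61 ± 0.21. Xlr4b was also 2-fold lower in the ob/ob pair (-1.36 ± 0.20). All 15 lower genes of this class had 0 neighbouring spots apart.

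The list of fatty acid uptake and oxidation lay mostly above 0 in the lean and mostly below 0 in the ob/ob pair. Of 30 genes, all measured on all 4 arrays, 25 lay above 0 in the lean pair and 26 below 0 in the ob/ob pair, and 21 did both, against 15.03% of all genes. The medians were 0.29 and -0.51. In the ob/ob pair 2 genes were 2-fold higher and 2 lower, against 242 and 121 of all 14907 genes. Acot2 alone was 2-fold apart in opposite directions between the pairs. In the lean pair 5 genes were 2-fold higher and 0 lower, against 1.73% and 0.88% of all genes. Besides Acot1, Angptl4 and Pdk4 these were Acot2, the mitochondrial partner of Acot1, with 131, 375, 251 and 81.4 (1.39 ± 0.21 in the lean and -1.39 ± 0.21 in the ob/ob pair), and Fabp3, the muscle fatty acid binding protein, with 74173, 167386, 92546 and 55473. For both genes the lean null array was the highest of the 4 and the ob/ob null array the lowest. Acot1 and Acot2 are close paralogs, so their probes could share signal. Plin5, a lipid droplet protein of oxidative muscle, was at 0.61 ± 0.20 and -1.25 ± 0.20. Angptl4 and Pdk4 were exceptions to the opposition and were higher in both pairs. Spike-in scaling moves the lean pair up and the ob/ob pair down, so medians of these signs must keep them under it. Their signs there are thus no check of the opposition. Relative to the median of genes measured on all 4 arrays, which moves by the same shift, the list lay at 0.37 and -0.53.

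Fatty acid and triglyceride synthesis leaned higher on both backgrounds, with 15 of 18 genes above 0 in the lean pair, 2 past 2-fold and medians of 0.24 and 0.27, the latter negative under spike-in scaling. Scd1, which desaturates fatty acids, gave 3179, 7684, 7682 and 10070.1, so that WT alone was low. Acaca, the carboxylase that commits carbon to fatty acids, gave 88.9, 195, 101 and 242 and was just past 2-fold (2.01-fold). Srebf1 was at 0.48 ± 0.20.

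Transporters of basal glucose uptake were lower in lean Txnip-null muscle. Of 20 genes of glucose uptake and glycolysis 3 were 2-fold lower and 0 higher, against 0.88% and 1.73% of all genes, and the median was -0.20 in the lean and 0.21 in the ob/ob pair, both of which change sign under spike-in scaling (0.04 in the lean pair). The basal glucose transporters Slc2a3 (GLUT3; 274, 98.1, 257 and 124) and Slc2a1 (GLUT1; 776, 363, 1036 and 538) were lower in both pairs, by 2-fold in the lean pair alone (-1.61 ± 0.21 and -1.23 ± 0.20, against -0.82 ± 0.21 and -0.71 ± 0.20). Slc2a1 was short of 2-fold in the lean pair under spike-in scaling. Slc2a4, the insulin-responsive GLUT4, went from 48296 to 33489 in the lean pair (-0.66 ± 0.20) and was at -0.02 ± 0.20 in the ob/ob pair. Aldoc, dim at 41.2 in WT, was at -1.26 ± 0.27. Of the 23 genes of insulin, AMPK and mTOR signalling 1 was 2-fold lower, Prkag3, the AMPK subunit of glycolytic muscle (1105, 470.2, 949.8 and 533). The median of that list was 0.02.

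Among genes in no class, Sln, sarcolipin, the regulator of the calcium pump, was lower (6815 against 2776, -1.43 ± 0.20), and Gstm2, a glutathione transferase, was lower in both pairs but short of 2-fold in the ob/ob pair (-1.39 ± 0.20 and -0.81 ± 0.20). Klf15, the factor that drives amino acid breakdown genes in fasting, went from 1932 to 1015 in the lean pair (-1.06 ± 0.20) and was at -0.57 ± 0.20 in the ob/ob pair, and its probes ranged from -1.06 to -0.71. Of the higher genes, G0s2, an inhibitor of the triglyceride lipase ATGL, gave 738, 2392, 1262 and 1689, and Rab15 gave 707, 2308, 1364 and 1338. Lgals4 (1.68 ± 0.21) was at -0.05 in the ob/ob pair, and Adamts8 (1.49 ± 0.21) was at -0.55 there, the opposite direction. The immediate early genes Egr1 (789, 260.2, 436 and 190.4) and Fos (1124, 571, 254 and 92.0) were lower too, yet the median of the 18 such genes was 0.01. Fos was brightest in WT and lower in both pairs, so it also belongs to the classes above.

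None of 37 oxidative phosphorylation genes was 1.5-fold apart, 0 of 37 lay above 0 (9 of 37 under spike-in scaling), and the median was -0.30 (-0.06 under spike-in scaling), against -0.07 over all genes. In the ob/ob pair the median was -0.06 and 10 of 37 lay above 0. Of 25 genes of pyruvate dehydrogenase and the tricarboxylic acid cycle 0 were 2-fold apart, with a median of -0.21 (0.04 under spike-in scaling). Cox8b, at -0.54 ± 0.20, and Pdp1, at -0.61 ± 0.20, were the farthest from 0 on the lower side of these lists. Glycogen metabolism had a median of -0.18 over 16 genes, with Gys2 alone 2-fold higher, and atrophy and autophagy -0.16 over 15, with Klf15 alone 2-fold lower, and both medians changed sign under spike-in scaling (0.06 and 0.08). Gys2 was short of 2-fold with normexp background correction, and Klf15 with quantile normalization, spike-in scaling and the median of its probes.

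**Figure D5:**
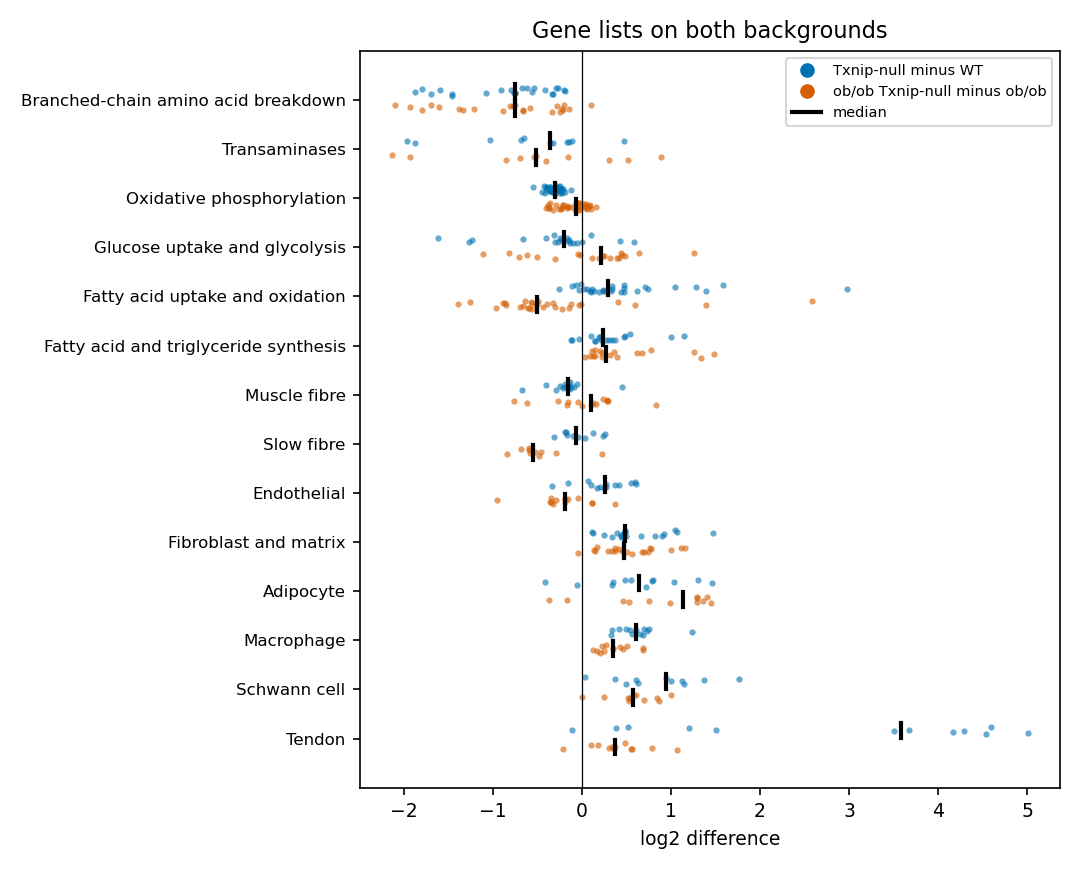
Log2 differences of the genes of 14 lists in the lean pair (blue) and the ob/ob pair (orange), 1 point per gene measured on all 4 arrays, with each list's median as a black bar. The bars coincide at -0.75 for branched-chain amino acid breakdown and lie on opposite sides of 0 for fatty acid uptake and oxidation (0.29 and -0.51), while for tendon the lean bar lies at 3.59 and the other at 0.37.

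Fibre type markers differed little in the lean pair. Slow fibre genes had a median of -0.07 over 10 genes and fast fibre genes -0.16 over 11 (0.17 and 0.09 under spike-in scaling), with none 2-fold apart. In the ob/ob pair the slow fibre median was -0.55. Of 8 satellite cell markers Myod1, the myogenic factor, was 2-fold lower (226, 117, 290.0 and 65.3), and the list's median was 0.16.

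Markers of other cells in muscle were mostly higher in the lean Txnip-null array, and their part in the results above was not tested. Over all genes 39.6% lay above 0 and 1.73% were 2-fold higher, as a base for these counts. Of 11 Schwann cell genes, 11 lay above 0 and 4 were 2-fold higher, with a median of 0.95 (0.58 in the ob/ob pair). Mbp, myelin basic protein, gave 438, 1630.1, 828 and 1281, with its 3 probes between 0.57 and 1.99, and Pmp22, peripheral myelin protein, 3579.8, 8564, 7082 and 8766. The summed signal of the 11 genes was 5461, 12673, 9835 and 12495. Of 12 adipocyte genes 3 were 2-fold higher, with medians of 0.64 and 1.14 in the lean and ob/ob pairs. Adipoq, adiponectin, gave 1291, 3496, 2239.5 and 5041, Cfd, adipsin, 15411, 34429.6, 1627 and 3382, and Lep, leptin, 36.4, 110.0, 247 and 571. The summed adipocyte signal was 101518 (WT) and 138235 (Txnip-null). Of 13 macrophage genes, 13 lay above 0 and 1, Cd68, was 2-fold higher (90.9 against 234), with a median of 0.61. Endothelial genes had a median of 0.26 in the lean and -0.19 in the ob/ob pair, with none 2-fold apart. Of the 10 T cell, 11 neutrophil and 10 B cell and plasma cell markers, 4, 2 and 4 were well above background on both arrays.

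The other lists are given by their lean medians, against -0.07 over all genes, and those below 0 turned positive under spike-in scaling. The medians were -0.12 for cysteine, methionine and glutathione (15 genes), 0.05 for the interferon response (19), 0.10 for the neuromuscular junction and denervation (17), -0.07 for the circadian clock (16), -0.19 for polyamine synthesis (10) and 0.05 for smooth muscle and pericytes (10). Red blood cell genes were at 0.24 (5 genes), keratinocyte genes at 0.03 (6), brown adipocyte genes at -0.02 (4), T cell genes at -0.17 (4), B cell and plasma cell genes at 0.43 (4) and neutrophil genes at -0.06 (2), and the cartilage and bone genes above at 0.37.

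Some genes were well above background on 1 array of the lean pair, where the difference is a bound: the dim array's value was its own signal or, if larger, that array's lowest signal well above background. Ttc25, a ciliary protein, was at least 27.1-fold higher without Txnip, from 8.59 to 332, with 525 on the ob/ob null array and 19.6 on its control. Cacnb4, a calcium channel subunit, was at least 16.1-fold higher, from 8.38 to 197, with 349 on the ob/ob null array. Both followed the Txnip genotype on both backgrounds. Ecrg4, at least 25.5-fold higher, and Wif1, a Wnt inhibitor at least 15.9-fold higher, were instead bright on both ob/ob arrays (257 and 506, and 226 and 181). Of the 8 spots around the Ecrg4 probe 3 also stood apart on the Txnip-null array. Among lower genes Lin28b, Zcchc18 and Bco1 were at least 15.9-fold lower and at 136 or more on the WT array against 16.0 or less elsewhere, with 2, 1 and 4 neighbouring spots apart on that array. The counts of bounds pass over clone, accession and predicted names. Bounds of 2-fold or more were reached by 96 of the 754 such genes seen on the Txnip-null array of the pair alone. For those seen on the WT array alone it was 94 of 171. With the passed-over names included, 1213 were seen on the Txnip-null array alone and 315 on the WT array alone.

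The 4 arrays allow a single fit with a residual, an additive model of the Txnip and ob/ob genotypes with 1 residual degree of freedom. It averages the Txnip difference over both backgrounds, takes departure from additivity as its error and is no test of the lean pair. With limma and Benjamini-Hochberg adjustment, 9 of 16115 genes were called higher (0.0558%) and 6 lower (0.0372%) without Txnip, with 1589 at an unadjusted p under 0.05. The number called ranged from 0 under quantile normalization to 471 under another background correction. Of the 15 genes, 5 could be read on all 4 arrays. These were Qprt (coefficient 3.52 ± 0.19, adjusted p = 0.0187), Nmrk2 (-3.11 ± 0.17, 0.0187), Cth (-2.86 ± 0.17, 0.0228), Smoc1 (2.67 ± 0.17, 0.0320) and Gys2 (2.42 ± 0.16, 0.0368). Another 4 were seen on both null arrays and neither other, and 4 the reverse, among them Adam29 and Akr1d1, chosen for mention after their values were seen, at 37.8 and 42.0 on the WT and 1.88 on the Txnip-null array. Cacnb4 and Ttc25 made up the rest. Genes seen on the arrays of 1 Txnip genotype alone passed the filter of 2 or more arrays only through that genotype. Their other side was not well above background, and the technical SE of Adam29 in the lean pair was 1.45. The calls of such genes are therefore not read as support for a difference. Txnip itself missed the threshold (-5.07 ± 0.49, adjusted p = 0.0915), with a lean difference of -4.06 and one of -6.08 in the ob/ob pair.

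Near Txnip on chromosome 3, 275 measured genes lay within 10 Mb of its probe. Of these 4 were 2-fold higher and 1 lower, or 1.82%, against 2.61% of all genes compared. They were Cd1d1, Chia1, S100a4, She and Slc27a3, named after their values were seen. The difference between these shares was not tested.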

How the data were processed

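The genes, lists and rules used here were chosen with earlier results of these data known. Spot intensity values were produced by the authors with Agilent Feature Extraction 9.5.3.1, per the file headers and the submitters' processing notes, and in the deposited processed signal background and spatial trends are removed within an array, with no scaling between arrays. Per the labels' protocols, 0.5 micrograms of RNA were labelled with Cy3. The 4 arrays lay on 1 slide. A deposited table of log2 values matched the scanner values after scaling at the 75th percentile and centring on each probe's median, as comparison with them shows. It keeps differences and no levels, and it was used as an alternative.

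Differences used log2 of the processed signal, from which the 75th percentile of an array's non-control probes was taken. Outlier spots were left out (59 to 110 per array), replicate spots averaged, and a gene was its probe with the highest mean level. Probes were named through RefSeq accessions (24496 probes), symbols (6234) or synonyms (2386) of GRCm38.p6, otherwise as in the files (8058). Positions are those of the array annotation (mm8). No spot was saturated. A gene counted as different at 2-fold, with no test. A gene well above background on 1 array of the pair was given as "at least N-fold". The additive fit used limma 3.58.1 (lmFit, eBayes) in R 4.3.3 at an adjusted p of 0.05, on genes that 2 or more arrays showed well above background. It was also run on simulated data with a common noise level for all genes, which does not test the calls made here. Alternatives were quantile normalization, normexp background correction (offset 50), spike-in and median scaling, the median of a gene's probes, no filter or a minimum signal of 100, 1.5-fold and 3-fold thresholds, and, chosen after seeing the data, leaving out probes with 2 or more of 8 neighbouring spots apart. Genes named are the 6 with the largest difference each way in each class that stay past 2-fold with quantile and with normexp processing, up to 4 bounds each way, up to 4 members of each list, Txnip and Lep, with clone and predicted names passed over. Genes at the 2-fold threshold are named for their place there, and other further genes were chosen after their values were seen. Some genes are not reported here. Without replicates, the number of arrays limits the precision.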

Additional observations from a re-analysis of the deposited data

Results flagged for a closer look

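Acot2 stood 2-fold or more apart in opposite directions on the lean and the ob/ob background, at 1.39 (log2, null minus control) in the lean pair and -1.39 in the ob/ob pair. Relative to the median over genes measured on all 4 arrays, fatty acid uptake and oxidation lay at 0.37 in the lean and -0.53 in the ob/ob pair, and endothelial genes at 0.33 and -0.22. With 1 array per genotype these differences between backgrounds were not tested.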

How the results depend on the processing

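Both the counts and the differences of the named genes depend on the processing. Of 182 named differences, 63 moved by more than their SE with normexp and 5 with quantile normalization. Spike-in scaling adds the same 0.24 to each, so the 155 that moved with it are those with an SE below 0.24. That count is not comparable with the other counts. Main counts, as higher and lower pairs, were 264 and 134 genes 2-fold apart, 98 and 30 for WT alone, 31 and 15 for Txnip-null alone, and 55 and 31 for both backgrounds. In the same order they were 79 and 57, 27 and 13, 10 and 4, 25 and 20 with normexp; 500 and 85, 252 and 14, 30 and 10, 28 and 38 with spike-in scaling; 1305 and 900, 323 and 432, 387 and 92, 243 and 110 with no filter; 81 and 44, 26 and 3, 8 and 5, 23 and 16 at a signal of 100 or more; 899 and 500, 335 and 117, 113 and 58, 254 and 106 at 1.5-fold; and 77 and 50, 26 and 14, 5 and 4, 12 and 12 at 3-fold. Without probes with neighbouring spots apart, WT alone lower fell to 12. Quantile normalization, median scaling, the deposited table and the median of a gene's probes kept each of these counts within 1.5 times. The additive fit called 15 genes, 0 with quantile normalization (1611 at an unadjusted p under 0.05 in limma), 471 with normexp, 88 with spike-in scaling, 7 with no filter and 83 at a signal of 100 or more. The cause of these changes was not tested, except that thresholds and filters alter how many genes can count. Genes named for their class were chosen to stay past 2-fold with normexp and with quantile normalization, which fixes that outcome for them. Of 75 named genes past 2-fold, 61 stayed past it with normexp, 70 with spike-in or median scaling and 72 with quantile normalization. Those lost were Abat, Acaca, Aldoc, Gys2, Arrdc4, Myod1, Col9a1, Timp1, Postn, Lep, Cd68, Cd79b, Ncmap and Prx with normexp, Slc2a1, Abat, Klf15, Fos and Myod1 with spike-in scaling, Acaca, Timp1, Postn, Cfd and Cd79b with median scaling, Acaca, Klf15 and Cd79b with quantile normalization, and Abat and Klf15 with the median of a gene's probes. No named gene past 2-fold changed direction. No list median that lay 0.2 or more from the median of all genes changed side. The tendon list's median relative to all genes was 2.46 with normexp and 0.96 at a signal of 100 or more. No paired analysis was possible because each genotype has 1 array. Signals near background limit the dim genes, such as Gys2 and the WT-alone lower genes.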

Other observations

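Genes 2-fold apart in opposite directions in the lean and the ob/ob pair numbered 6. Besides Acot2 these were Ch25h, cholesterol 25-hydroxylase (1.12 and -1.11), Kl, which encodes the FGF co-receptor Klotho (-1.15 and 2.14), Htra4 (-1.29, and just past 2-fold higher), Wfdc21 (-1.10 and 1.43) and BC006965 (-2.84 and 2.14), all named after their values were seen. Kl was dim, with signals of 44.3, 21.8, 12.3 and 45.9 in the array order of the report, and BC006965 gave 122, 18.6, 281 and 1051.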
